A study of Mus musculus with 8 samples.

Results

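Genes of ribosome biogenesis and RNA polymerase I were described across mouse embryonic fibroblasts (MEFs) and liver of 4 genotypes. The members were a list of 46 genes, chosen by name and taken with all array probes annotated to them. Of the 46 genes, 40 had at least 1 probe, and these 40 were covered by 62 of the 25608 probes of the array, which carries probes for 16559 genes in all. No probe was annotated to Polr1b, Rrn3, Utp20, Wdr43, Ddx10 or Noc2l in the table used here. The 40 genes fell into 6 classes: RNA polymerase I and its factors, box C/D small nucleolar ribonucleoproteins (snoRNPs), box H/ACA snoRNPs, abundant nucleolar proteins, small subunit factors and large subunit factors.

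Total RNA was hybridized to Illumina MouseRef-8 v2 bead arrays, with 1 array for each of 8 groups. The MEF groups were Dnmt2-/-, Nsun2-/-, double knockout (DKO, lacking both genes) and wild type. All 4 were lines made from embryos at day 13.5, immortalized with SV40 large T antigen and taken at passage 9. The liver groups were the same 4 genotypes, from mice aged 2 months. The labels give the strain as CBA/C57BL6j x B6;129. Dnmt2 (gene symbol Trdmt1) and Nsun2 are cytosine-5 methyltransferases of RNA, and tRNAs are substrates of both. Because each group had 1 array, a difference between 2 arrays carries no p-value, and a MEF array also stands for 1 line. Large T antigen was used for the MEF lines and not for the livers, so it cannot be told apart from the other differences between the sample types.

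Ribosome production starts in the nucleolus, where RNA polymerase I transcribes the precursor of most ribosomal RNA. Box C/D snoRNPs add ribose methyl groups to that precursor, and box H/ACA snoRNPs convert chosen uridines to pseudouridine. Processing factors then cut and fold it into the small and the large ribosomal subunit. The pathway is known to be active in dividing cells and lower in resting tissue such as adult liver.

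Levels below are log2 normalized signals of 1 probe per gene, the brightest one, and are comparable between arrays but not between genes. A probe counted as detected at a detection p-value under 0.01, which held for 13019 to 13409 probes per MEF array and 11585 to 11688 per liver array. By this rule 34 to 37 of the 40 members were detected per MEF array and 33 or 34 per liver array. Of 10 hepatocyte markers with a probe, 9 were detected on each liver array and 1 to 3 on each MEF array. Of 11 fibroblast markers with a probe, 11 were detected on each MEF array and 6 to 9 on each liver array. The Nsun2 probe read 4.33 and 4.22 on the Nsun2-/- and DKO MEF arrays, where it was not detected, against 5.14 on the Dnmt2-/- and 5.36 on the wild-type MEF array. It read 4.10 and 4.19 on the Nsun2-/- and DKO liver arrays, against 5.35 on the wild-type liver array. On the liver array labelled Dnmt2-/- it read 4.41 and was not detected either. That goes against a label that names the loss of Dnmt2 alone. The doubt rests on 1 dim probe on 1 array, whose lowest detected signal was 4.51. The Trdmt1 probe was detected on the Dnmt2-/- and DKO MEF arrays (5.09 and 4.64) and not on the wild-type MEF array (4.51) or any liver array, so it does not check that genotype. In livers Trdmt1 read 4.87, 4.15, 4.64 and 4.31 on the arrays labelled Dnmt2-/-, Nsun2-/-, DKO and wild type. In both sample types the arrays labelled Dnmt2-/- and DKO thus read highest on that probe. The Y-linked gene Eif2s3y was not detected in Nsun2-/- and DKO MEFs (4.09 and 4.10), against 6.78 and 7.85 in Dnmt2-/- and wild-type MEFs. In the same order Y-linked Kdm5d read 4.29 and 4.25, against 5.70 and 5.95. Sex-linked Xist read 5.90 and 6.07, against 4.58 and 4.47. Y-linked Uty did not follow this split: it was detected on all 8 arrays, at 4.93 and 5.37, against 4.91 and 4.97. Loss of Nsun2 and the sex of the line therefore cannot be told apart in MEFs.

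Between MEFs and liver, 25 of the 36 members tested were higher in MEFs and 0 were lower. With no background correction or with the authors' processed intensities 1 member, Nop10, was called lower beside 25 higher. The share of all 10491 genes tested that was called higher by the same rule was 38.6%, and the share called lower was 28.6%. The test was limma's moderated fit with sample type, Dnmt2 loss and Nsun2 loss as terms, with adjusted p under 0.05 over all probes tested. The median difference of the members, MEF minus liver, was 0.84 on the log2 scale, and that of all genes was 0.14. In bulk samples of this kind, fewer cells of a type and less RNA per cell cannot be told apart. A further 4 listed genes with a probe did not enter the fit, because the filter required detection on 2 of the 8 arrays: Dkc1, Wdr12 and Nop16 were detected on no array and Bysl on 1. Among the 33 members detected on all 8 arrays, which the filter could not have chosen for a high level in MEFs, 24 were called higher and 0 lower. For the 6154 genes detected on all 8 arrays the shares were 40.7% higher and 30.9% lower. Without the liver array labelled Dnmt2-/- 24 members were called higher and 0 lower, and their median was 0.89.

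**Figure D1:**
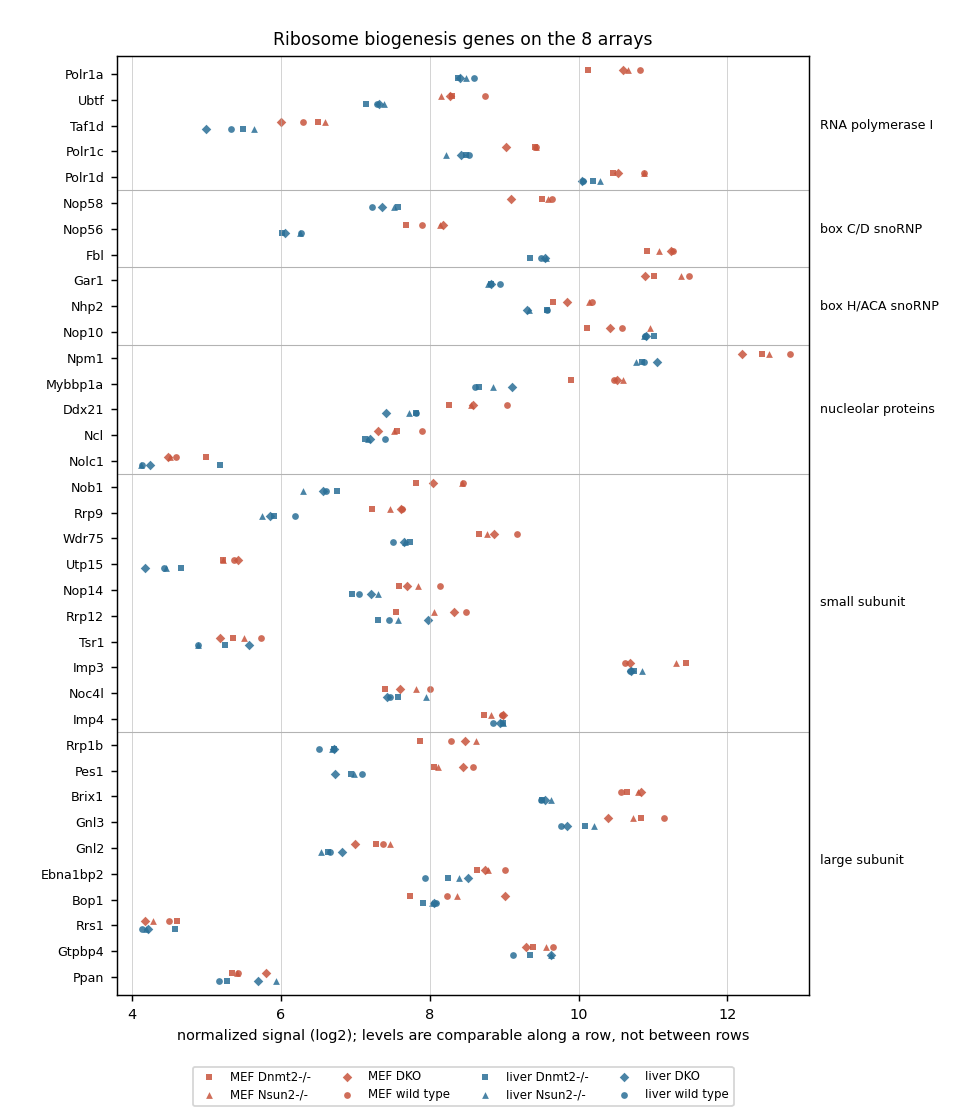
Levels (normalized log2 signal, x axis) of the 36 members tested, 1 row per gene and 1 point per array, with MEF arrays in red and liver arrays in blue and a symbol for each genotype. For Polr1a the 4 MEF arrays lie between 10.13 and 10.83 and the 4 liver arrays between 8.39 and 8.59, whereas for Ppan the 2 sets of arrays overlap.

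The size of the difference depended on how the arrays were scaled. With median scaling in place of quantile normalization the median of all genes was 0.51, and 33 members were called higher and 0 lower, against 51.7% of all genes higher. With each array centred on the probes detected on all 8 arrays the median of all genes was −0.49, and 19 members were called higher and 6 lower, against 25.9% of all genes higher. Over all genes the calls were 4053 higher and 3003 lower with quantile normalization, 5424 and 2146 with median scaling, and 2712 and 5444 with centring. Relative to the median of all genes, the members' median was 0.71 higher as reported and 0.43 to 0.98 higher under the other 4 scalings. Of the 36 members, 30 lay above the median of all genes as reported and 31 under each of the others. The 19 members called higher under centring were called under all 5 scalings. Polr1d, Nhp2, Ncl, Utp15, Ebna1bp2 and Gnl3 were called under 4 of the 5.

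All 5 measured genes of RNA polymerase I and its factors were higher in MEFs, with a median difference of 0.99. Polr1a, which encodes the largest subunit of the polymerase, read 10.13, 10.66, 10.60 and 10.83 on the Dnmt2-/-, Nsun2-/-, DKO and wild-type MEF arrays, against 8.39, 8.48, 8.41 and 8.59 on the liver arrays of the same genotypes. Every MEF array lay above every liver array, by far more than the spread within either sample type. The difference was 2.09 ± 0.15 (SE), a 4.25-fold higher level in MEFs, with an adjusted p of 4.42e-06 (limma). The 2 dimmer Polr1a probes gave smaller differences of 1.28 (adjusted p = 0.000272, limma) and 0.46 (adjusted p = 0.209, limma), so the size for Polr1a rests on the probe.

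Ubtf encodes the factor that binds and opens the ribosomal DNA promoter. It read 8.30, 8.16, 8.28 and 8.75 in Dnmt2-/-, Nsun2-/-, DKO and wild-type MEFs, against 7.14, 7.39, 7.32 and 7.29 in livers of the same genotypes. The groups did not overlap, and the difference was 1.08 ± 0.16 (SE; adjusted p = 0.000348, limma). Taf1d, a subunit of the promoter selectivity factor, read 6.51, 6.60, 5.997 and 6.30 in the MEFs, against 5.50, 5.64, 4.99 and 5.33 in the livers in that order of genotypes. In both sample types the DKO array was the lowest of the 4 on this probe, which was 1.98-fold higher in MEFs (adjusted p = 0.0015, limma). On the second Taf1d probe the DKO array was the lowest in MEFs (5.33) but not in livers. There it read 4.72, against 4.55 in wild-type liver, and neither was detected.

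Polr1c and Polr1d encode subunits that RNA polymerase I shares with RNA polymerase III. Polr1c read 9.42, 9.42, 9.03 and 9.43 in Dnmt2-/-, Nsun2-/-, DKO and wild-type MEFs, against 8.48, 8.22, 8.42 and 8.53 in livers of the same genotypes. Polr1d read 10.46, 10.89, 10.53 and 10.89 in the MEFs, against 10.20, 10.29, 10.05 and 10.05 in the livers. Neither gene overlapped between the sample types, and the differences were 0.91 (adjusted p = 0.000466, limma) and 0.54 (adjusted p = 0.00872, limma). The direction for Polr1d turned to −0.10 when arrays were centred on the probes detected everywhere, the only member of its class for which it did so under any of the 5 scalings.

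The 3 box C/D proteins were all higher in MEFs, with a median of 1.82, under each of the 5 scalings. Nop58, a scaffold protein of the particle, read 9.52, 9.58, 9.10 and 9.64 in Dnmt2-/-, Nsun2-/-, DKO and wild-type MEFs, against 7.58, 7.52, 7.36 and 7.23 in livers of the same genotypes. Its partner Nop56 read 7.69, 8.14, 8.18 and 7.90 in the MEFs, against 6.01, 6.26, 6.06 and 6.27 in the livers. Fibrillarin (Fbl), the methyltransferase itself, read 10.92, 11.08, 11.25 and 11.27 in the MEFs, against 9.34, 9.57, 9.55 and 9.49 in the livers. For each of the 3 genes all MEF arrays lay above all liver arrays. The folds were 4.11 for Nop58 (adjusted p = 8.09e-06), 3.54 for Nop56 (5.57e-06) and 3.12 for Fbl (9.63e-06), all by limma.

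The box H/ACA proteins did not move as one group. Gar1 had the largest difference of all members, at 2.35 ± 0.14 (SE) or 5.08-fold (adjusted p = 1.26e-06, limma). It read 11.01, 11.38, 10.90 and 11.48 in Dnmt2-/-, Nsun2-/-, DKO and wild-type MEFs, against 8.82, 8.79, 8.82 and 8.95 in livers of the same genotypes. Nhp2, which sits in the same core particle, read 9.65, 10.14, 9.84 and 10.18 in the MEFs, against 9.58, 9.34, 9.30 and 9.58 in the livers. It was 1.42-fold higher in MEFs (adjusted p = 0.0178, limma), and lost its call under centring and without 1 of 3 arrays (wild-type MEF, Nsun2-/- MEF or Nsun2-/- liver). Nop10, the smallest core protein, read 10.12, 10.96, 10.42 and 10.58 in the MEFs, against 11.01, 10.88, 10.91 and 10.89 in the livers. Only the Nsun2-/- MEF array reached the liver range for Nop10, and the difference was −0.40 with a 95% interval of −0.79 to −0.01 (adjusted p = 0.0654, limma). It was called lower with no background correction (−0.38), with the authors' intensities (−0.38), with a trended variance prior (−0.40) and with centring (−1.14). It was also called without the Nsun2-/- MEF array (−0.53) or the Nsun2-/- liver array (−0.51). The second Nop10 probe was lower in MEFs by the test, at −0.66 (adjusted p = 0.00293, limma). Dkc1, the pseudouridine synthase of the particle, had no probe detected on any array.

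Among the nucleolar proteins 4 of 5 were higher in MEFs, against 38.6% of all genes. Nucleophosmin (Npm1), a chaperone of ribosome assembly, read 12.46, 12.57, 12.20 and 12.84 in Dnmt2-/-, Nsun2-/-, DKO and wild-type MEFs, against 10.86, 10.78, 11.06 and 10.89 in livers of the same genotypes. The 2 ranges lay more than 1 log2 unit apart, and the fold was 3.08 (adjusted p = 3.01e-05, limma). Mybbp1a, a nucleolar protein that binds MYB, was 2.96-fold higher (adjusted p = 3.4e-05, limma), and its other 2 probes were called higher as well. The RNA helicase Ddx21 was 1.89-fold higher (adjusted p = 0.00127, limma). Nucleolin (Ncl) was 1.28-fold higher with an adjusted p of 0.0461 (limma), lost under centring and without any 1 array other than the DKO liver. On the second Ncl probe, detected on all 8 arrays, the sample types overlapped, at 7.05 to 7.85 in MEFs and 7.13 to 7.40 in livers. Nolc1, a chaperone of snoRNPs, was detected on 2 arrays, those labelled Dnmt2-/- in MEFs and in liver, and was not called.

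The small subunit factors divided evenly, with 5 of 10 tested genes higher in MEFs and none lower on the brightest probe. Of all genes tested 38.6% were called higher, so the count for this class lies near that share. The 5 were Nob1, the endonuclease of the last cut of the small subunit RNA (1.63), Rrp9, a protein of the U3 snoRNP (1.56), Wdr75 (1.23) and Utp15 (0.88), which join the precursor early, and Nop14 (0.68). Utp15 was detected on the 4 MEF arrays (5.23, 5.23, 5.43 and 5.37 in Dnmt2-/-, Nsun2-/-, DKO and wild type) and on no liver array, where it read 4.67, 4.46, 4.18 and 4.43. Its level in MEFs was 1.71-fold above the lowest detected signal of each liver array, or above its own liver reading where that was higher. Undetected probes can read above the lowest detected signal, as Utp15 did at 4.67 against 4.51, so 1.71 is not a strict lower bound. That figure was not tested. The adjusted p of 0.000796 (limma) belongs to the fitted difference of 0.88, which used the undetected liver readings. Imp3 and Imp4, known in yeast to help pair U3 RNA with the precursor, gave 0.27 and −0.06 and were not called. Imp4 read 8.72, 8.83, 8.99 and 8.97 in Dnmt2-/-, Nsun2-/-, DKO and wild-type MEFs, against 8.98, 8.98, 8.95 and 8.86 in livers of the same genotypes, and the sample types overlapped. The second Imp4 probe was lower in MEFs, at −0.56 (adjusted p = 0.017, limma). Noc4l also differed between probes, at 0.10 on the brightest and 0.94 on the second (adjusted p = 0.605 and 0.00102, limma). Rrp12 and Tsr1, known from yeast as late-acting export and maturation factors, gave 0.53 and 0.30 and were not called.

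Of the large subunit factors 6 of 10 tested genes were higher in MEFs, against 38.6% of all genes. Rrp1b read 7.87, 8.63, 8.47 and 8.29 in Dnmt2-/-, Nsun2-/-, DKO and wild-type MEFs, against 6.71, 6.68, 6.72 and 6.51 in livers of the same genotypes, a 3.15-fold difference (adjusted p = 2.35e-05, limma). All 3 of its probes were called higher. Pes1 and Bop1 act in 1 complex with Wdr12 and did not give the same result. Pes1 was 2.58-fold higher in MEFs (adjusted p = 9.05e-05, limma), whereas Bop1 gave 0.32 with a 95% interval of −0.19 to 0.82 (adjusted p = 0.234, limma). The other calls were Brix1 (1.17), the nucleolar GTPases Gnl3 (0.81) and Gnl2 (0.62), and Ebna1bp2 (0.52), whose dimmer probes gave 0.52 and −0.12 and were not called. The call for Ebna1bp2 was lost under centring and without the wild-type MEF array (0.38) or the wild-type liver array (0.39). On the second Gnl2 probe, detected on all 8 arrays, the sample types overlapped, at 6.42 to 6.95 in the MEFs and 6.44 to 6.92 in the livers. The result for Gnl2 therefore depends on the probe. Ppan read 5.35, 5.41, 5.81 and 5.42 in the MEFs, against 5.27, 5.94, 5.69 and 5.16 in the livers. Gtpbp4, a GTPase of the large subunit, read 9.40, 9.56, 9.29 and 9.65 in the MEFs, against 9.34, 9.63, 9.63 and 9.12 in the livers. The sample types overlapped for both genes, with differences of −0.02 for Ppan and 0.04 for Gtpbp4. Rrs1 was detected on 2 MEF arrays and no liver array, too close to background for a fold.

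**Figure D2:**
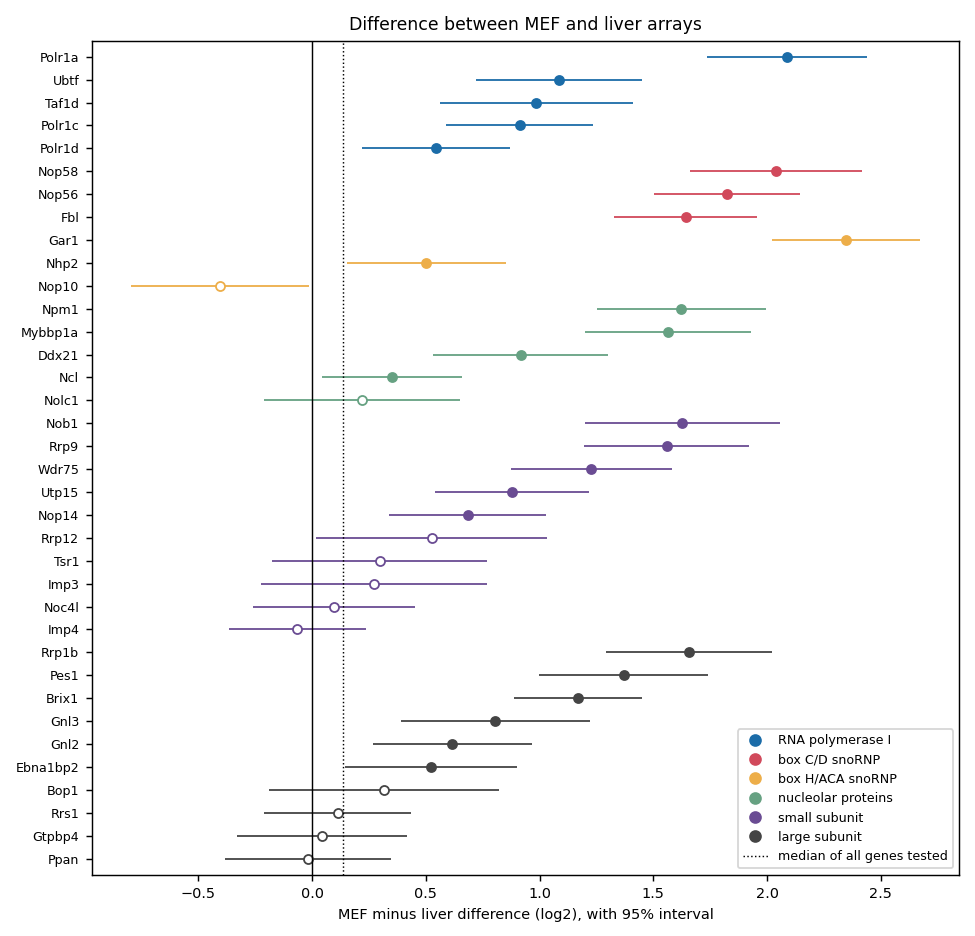
MEF minus liver difference (log2, x axis) for the 36 members tested, by class, with the 95% interval of the limma fit; filled points have an adjusted p under 0.05 and the dotted line marks the median of all genes, 0.14. Gar1 at 2.35, Polr1a at 2.09 and Nop58 at 2.04 lie farthest to the right, and Nop10 at −0.40 farthest to the left.

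Counted without a model, 24 of the 36 members read higher on all 4 MEF arrays than on any liver array, and 0 read lower on all 4. The shares of all genes tested were 36% and 26.6%. Across the 15 members with more than 1 tested probe, all probes were above 0 for 12 members and below 0 for 2 (Nop10 and Imp4), and they split for Ebna1bp2. Other genes of the pathway, from a list of 114 with 104 on the array and 91 tested, gave 51 higher in MEFs and 7 lower, with a median of 0.62 (limma). Within that list the exosome genes gave 7 higher and 2 lower of 11, the snoRNP assembly factors 5 and 0 of 6, and further RNA polymerase I genes 5 and 1 of 9. Genes of the MYC network, listed apart, gave 3 and 0 of 6. Beside all these counts, the same test called 38.6% of all genes higher and 28.6% lower. The counts for the further RNA polymerase I genes and the MYC network lie near the share called higher. The proliferation genes used for context were higher in MEFs for 12 of 12 tested, with a median of 4.93, so members and proliferation genes moved the same way. Their part in the members' difference was not tested. Fibroblast markers were higher in MEFs for 10 of 11 genes and hepatocyte markers lower for 9 of 9. Epithelial markers were lower in MEFs for 3 of 4 genes, and bile duct markers higher for 1 of 3. Markers of macrophages and endothelium, cell types a whole liver holds, were lower in MEFs for 6 of 6 genes each. Their summed linear signal was 110.9 to 119.9 in MEFs and 2622 to 3626 in livers for macrophages, and 112.2 to 146.8 in MEFs and 750.3 to 871.2 in livers for endothelium. Lymphocyte markers, at 0 of 2 tested genes called, summed to 81.15 to 86.62 in MEFs and 85.03 to 106.6 in livers. These sums include the background readings of undetected probes. Per MEF array 0 or 1 macrophage, 0 to 3 endothelial and 0 or 1 lymphocyte markers were detected. Per liver array 0 to 2 lymphocyte markers were detected, so the lymphocyte sums are mostly background in both sample types.

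Genes of ribosome biogenesis are known targets of MYC, which binds the E-box CACGTG as a dimer with MAX, so that motif was looked for in their promoters. Myc was detected on the 4 MEF arrays (5.25, 5.41, 5.02 and 4.98 in Dnmt2-/-, Nsun2-/-, DKO and wild type) and on no liver array (4.29, 4.35, 4.62 and 4.37). Of the other MYC network genes, Mxd3 was also detected on the 4 MEF arrays only (6.04, 6.10, 5.90 and 6.31 in that order). Max, Mxd4 and Mxi1 were detected on all 8 arrays, Mnt on 2, and Mycn and Mxd1 on none. RefSeq promoter windows of the build GRCm38.p6, from 250 bases before to 50 bases after the start, were found for 40 of the 46 listed genes. The motif reads the same on both strands, and it occurred in the windows of 7 of these 40 genes (17.5%), against 2187 of all 27025 genes (8.09%). Of the 7, Imp4, Pes1, Mybbp1a and Tsr1 had a probe. The stretches around their motifs are shown because these 4 genes differed in outcome, Pes1 and Mybbp1a being higher in MEFs, and Imp4 and Tsr1 not called on their brightest probe. Each is on the plus strand and written 5′ to 3′ with the motif in capitals.
Pes1 (chr11:3963965-3963994): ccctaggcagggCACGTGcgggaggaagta
Mybbp1a (chr11:72441355-72441376): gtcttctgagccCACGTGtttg
Imp4 (chr1:34439696-34439725): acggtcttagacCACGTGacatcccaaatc
Tsr1 (chr11:74898092-74898121): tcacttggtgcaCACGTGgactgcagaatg
The motif started at base 3 after the start of transcription in Pes1, base 41 in Mybbp1a and base 25 in Tsr1, and at −121 in Imp4. A match describes the letters in the window and is not evidence of binding. The most strongly different genes with a window, Gar1, Polr1a and Nop58, held no CACGTG there.

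MEF arrays lacking Dnmt2 gave mostly lower readings of these genes, but none passed the test. Each array is 1 line, so the loss and the line cannot be told apart. In the nested limma fit, which takes the mean of Dnmt2-/- minus wild type and DKO minus Nsun2-/-, 30 of 36 members were below 0, with a median of −0.27. The first of these pairs had a median of −0.37 (31 of 37 below 0) and the second −0.15 (21 of 34). Of all genes tested 52.5% were below 0, and their median was −0.02. With an adjusted p under 0.05, 0 members were called in either direction, as were 0% of all genes. At an unadjusted p under 0.05, 3 members were lower (8.33%) and 0 higher, against 2.56% of all genes lower and 3.87% higher. The fit has 2 residual degrees of freedom, and its spread is the departure of the 8 arrays from that layout.

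The 3 members were Nob1, Nop10 and Gar1. Nob1 read 7.81 in Dnmt2-/- MEFs and 8.45 in wild-type MEFs, and 8.04 in DKO MEFs and 8.43 in Nsun2-/- MEFs. Both pairs were lower with Dnmt2 lost, and the fitted difference was −0.51 ± 0.19 (SE; adjusted p = 0.808, limma). The second Nob1 probe gave −0.44. Gar1 read 11.01 in Dnmt2-/- MEFs and 11.48 in wild-type MEFs, and 10.90 in DKO MEFs and 11.38 in Nsun2-/- MEFs, a fitted difference of −0.47 ± 0.18 (SE; adjusted p = 0.83, limma). Nop10 read 10.12 in Dnmt2-/- MEFs and 10.58 in wild-type MEFs, and 10.42 in DKO MEFs and 10.96 in Nsun2-/- MEFs, a fitted difference of −0.50 ± 0.18 (SE; adjusted p = 0.801, limma). Nop10's second probe gave −0.17.

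With Nhp2, at −0.41 (adjusted p = 0.857, limma), the 3 measured box H/ACA genes were all lower in both pairs. The 5 RNA polymerase I genes were all below 0 in the fit, with a median of −0.20 and a range from −0.39 to −0.16. Polr1a read 10.13 in Dnmt2-/- MEFs and 10.83 in wild-type MEFs, but 10.60 in DKO MEFs and 10.66 in Nsun2-/- MEFs. Its pair differences were thus −0.70 and −0.06, which shows how far the 2 estimates of the same loss could lie apart. Box C/D genes had a median of −0.09, nucleolar proteins −0.33, small subunit factors −0.27 and large subunit factors −0.15.

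The 2 pairs share no array, so they can be set side by side. Of 34 members measured in both, 19 were lower in both (55.9%), 1 was higher in both (Brix1, at 0.08 and 0.05) and 14 split. The shares over all genes were 27.3% lower in both and 23.3% higher in both. For the other genes of the pathway 41 of 91 (45.1%) were lower in both and 9 higher in both. Of the proliferation genes 9 of 12 were below 0 in the fit, with a median of −0.19 and 0 called, and their part in the members' values was not tested. Fibroblast markers moved with these arrays as well. In Dnmt2-/- minus wild-type MEFs 11 of 11 were higher, with a median of 0.38, whereas in DKO minus Nsun2-/- MEFs 8 of 11 were lower, 4 of them at least 2-fold. Their summed linear signal was 33618 in Dnmt2-/- MEFs and 22036 in wild-type MEFs, and 14516 in DKO MEFs and 26886 in Nsun2-/- MEFs. Thy1 read 7.22 and Dcn 9.55 in DKO MEFs, against 11.46 and 13.16 in Nsun2-/- MEFs. The part of these shifts in the members' values was not tested either. The median of the members depended on single arrays. It was −0.13 without the Dnmt2-/- MEF array or without the wild-type MEF array, and −0.37 without the DKO or the Nsun2-/- MEF array, since each of these leaves 1 pair.

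**Figure D3:**
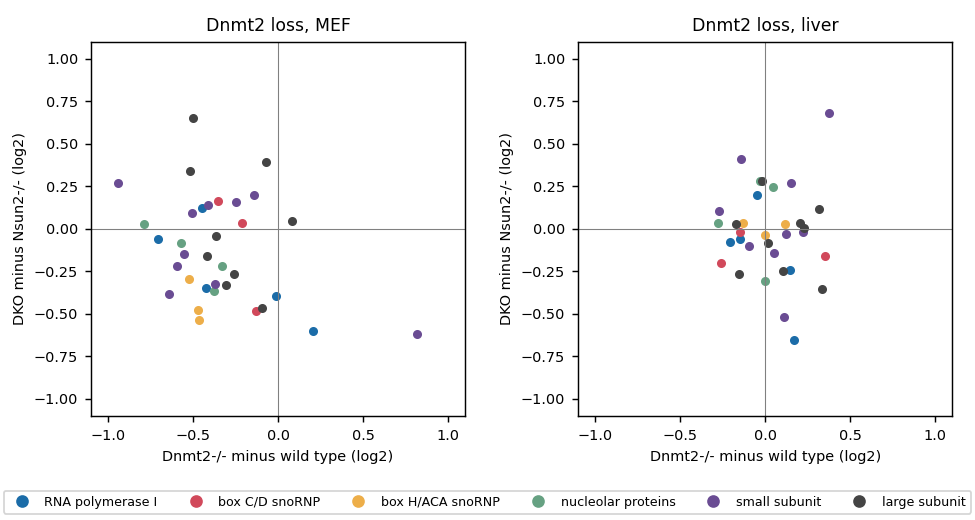
Each point is a member gene, with its Dnmt2-/- minus wild-type difference (log2) on the x axis and its DKO minus Nsun2-/- difference (log2) on the y axis, in MEFs (left) and liver (right). In MEFs 19 of 34 points lie below 0 on both axes, and in liver 6 of 33 do.

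In liver the same fit gave a median of −0.02 for Dnmt2 loss, with 20 of 36 members below 0 (49.8% of all genes), and 0 were called (0% of all genes by limma). The liver array labelled Dnmt2-/- had no detectable Nsun2, so this comparison rests on an array whose label is in doubt. The same array enters each liver fit, each set of 2 liver pairs, the differences between MEFs and liver in response, and the interaction. Without it these fits also called 0 members (limma). Of 33 members measured in both liver pairs, 6 were lower in both and 7 higher in both, against 24.2% and 24.6% of all genes. Tsr1 read 5.26 in the liver labelled Dnmt2-/- and 4.88 in wild-type liver, and 5.57 in DKO and 4.89 in Nsun2-/- liver. Its difference of 0.53 had an unadjusted p of 0.0348 and an adjusted p of 1.0 (limma), and it was the one member under 0.05 before adjustment, against 2.36% of all genes higher and 1.96% lower. Nolc1 read 5.18 in the liver labelled Dnmt2-/- and was not detected in wild-type liver (4.14). The reading of 5.18 was 1.61-fold above the lowest detected signal of the wild-type liver array (4.49). An undetected probe can read above that signal, so 1.61 is not a strict lower bound for Nolc1. Nolc1 was not detected in DKO or Nsun2-/- liver (4.24 and 4.13). The fitted difference of Taf1d was −0.24 and that of Nop56 −0.23, neither called.

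The difference between MEFs and liver in the response to Dnmt2 loss was tested in the same fit. It was below 0 for 28 of 36 members, against 51.9% of all genes, with a median of −0.27, and 0 members passed an adjusted p under 0.05 (limma; 0% of all genes). At an unadjusted p under 0.05, Tsr1 (−0.87) and Nob1 (−0.72) were lower and 0 were higher, against 2.4% and 3.06% of all genes. The dimmer Nob1 probe fell on the other side of 0 from the brightest one in liver (−0.61 and 0.21), so the figure for Nob1 depends on the probe. Over both sample types together Dnmt2 loss had a median of −0.10, with 26 of 36 members below 0 (51.9% of all genes) and 0 called (limma; 0% of all genes). At an unadjusted p under 0.05 there were 0 members, against 2.27% of all genes higher and 1.77% lower.

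Loss of Nsun2 showed no common direction in these genes. In MEFs 19 of 36 members were below 0 (51.3% of all genes), with a median of −0.03, and 0 were called (limma; 0% of all genes). Bop1 had the largest fitted difference, at 0.70 ± 0.31 (SE; adjusted p = 1.0, limma). It read 8.37 in Nsun2-/- MEFs and 8.24 in wild-type MEFs, and 9.02 in DKO MEFs and 7.74 in Dnmt2-/- MEFs. The DKO array alone was high, and DKO minus Dnmt2-/- was 1.28, the one member difference of at least 2-fold among the comparisons of 2 MEF arrays. That is 1 of 37 members higher and 0 lower in this comparison, against 262 of 9835 genes higher and 368 lower. Rrp1b read 8.63 in Nsun2-/- MEFs and 8.29 in wild-type MEFs, and 8.47 in DKO MEFs and 7.87 in Dnmt2-/- MEFs. Its difference of 0.47 was the one member past an unadjusted p of 0.05 (0.0493, with an adjusted p of 1.0, limma), against 2.42% of all genes higher and 2.46% lower at that level. Of 35 members measured in Nsun2-/- minus wild type and in DKO minus Dnmt2-/-, which share no array, 10 were lower in both and 6 higher in both, against 25.5% and 21.7% of all genes. Gnl3 gave −0.43 on its brightest probe and −0.04 on the second, and Nop56 gave 0.37.

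In liver the median for Nsun2 loss was 0.04, with 14 of 36 members below 0 (49.3% of all genes) and 0 called, and limma called 1 gene of 10491 (0.00953%), which is not a member. DKO liver minus the liver labelled Dnmt2-/- is 1 of the 2 pairs behind this fit, so it shares that doubt. The pair without that array, Nsun2-/- minus wild-type liver, had a median of 0.10. Ppan read 5.94 in Nsun2-/- liver and 5.16 in wild-type liver, and 5.69 in DKO liver and 5.27 in the liver labelled Dnmt2-/-. Its difference of 0.60 had an unadjusted p of 0.036 and an adjusted p of 0.781 (limma), and it was the one member under 0.05 before adjustment, against 3.27% of all genes higher and 3% lower. Gtpbp4 (0.40), Rrp12 (0.40) and Nolc1 (−0.48) followed in size and were not called. Of 33 members measured in both liver pairs for this loss, 8 were lower in both and 11 higher in both, against 26.2% and 27.7% of all genes. Ebna1bp2 gave 0.37 on its brightest probe, 0.68 on 1 dimmer probe and −0.14 on the other. Over both sample types Ppan was again the one member past an unadjusted p of 0.05, at 0.41 (adjusted p = 0.972, limma), against 2.32% of all genes higher and 1.94% lower. The response to Nsun2 loss in MEFs minus that in liver was below 0 for 21 of 36 members (51.2% of all genes), with 0 called (limma; 0% of all genes). It had 0 members at an unadjusted p under 0.05, against 2.53% of all genes higher and 2.71% lower.

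Each knockout array set directly against wild type gave differences under 2-fold for the members detected on both arrays. Nolc1 was not detected in wild-type liver. For it, only the 1.61-fold distance of the liver labelled Dnmt2-/- from the lowest detected signal of the wild-type liver array was available. Of all genes, 2.79% were at least 2-fold higher and 0.944% lower in Dnmt2-/- MEFs, 2.02% and 0.723% in Nsun2-/- MEFs, and 4.13% and 2.95% in DKO MEFs. In liver the shares were 1.44% and 1.82% for the array labelled Dnmt2-/-, 1.82% and 2.13% for Nsun2-/- and 2.05% and 2.08% for DKO. The members' medians were −0.37 for Dnmt2-/- minus wild-type MEFs (31 of 37 below 0), −0.14 for Nsun2-/- (25 of 35) and −0.31 for DKO (26 of 35). Of all genes 53.9%, 55% and 52.7% were below 0 in these 3 comparisons. They share the wild-type MEF array, so they do not support each other. The liver medians were 0.03 for the array labelled Dnmt2-/-, 0.10 for Nsun2-/- and 0.04 for DKO, with 14 members below 0 in each, of 34, 33 and 33 measured. Of all genes 49.7%, 49.6% and 49% were below 0 there.

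**Figure D4:**
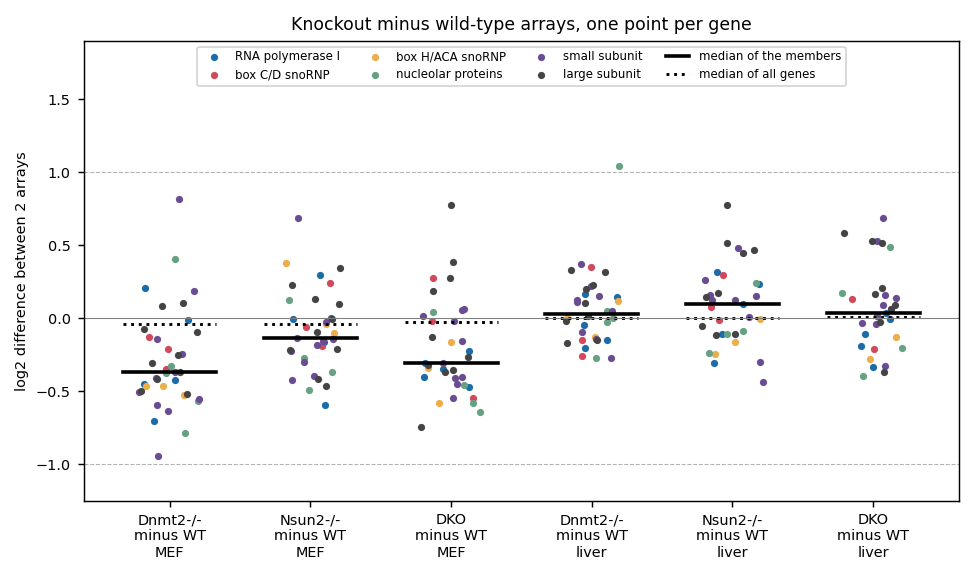
Difference of each knockout array from wild type in MEFs or in liver (log2, y axis), 1 point per member gene coloured by class; solid bars mark the median of the members, dotted bars that of all genes, and dashed lines a 2-fold difference. The 3 MEF medians, −0.37, −0.14 and −0.31, lie below those of all genes, and the 3 liver medians lie between 0.03 and 0.10.

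In DKO against wild-type MEFs the largest differences among members were 0.78 for Bop1, −0.75 for Gnl3, −0.64 for Npm1 and −0.58 for Ncl. Gnl3 (nucleostemin) read 10.84, 10.74 and 10.40 in Dnmt2-/-, Nsun2-/- and DKO MEFs, against 11.15 in wild-type MEFs. Ncl read 7.57, 7.53 and 7.31 in Dnmt2-/-, Nsun2-/- and DKO MEFs, against 7.89 in wild-type MEFs. On the brightest probe of Gnl3, Ncl and Npm1 the wild-type MEF array was the highest of the 4 and the DKO array the lowest. On the second Gnl3 probe, which read 5.92, 6.03 and 6.11 in Dnmt2-/-, Nsun2-/- and DKO MEFs against 6.30 in wild-type MEFs, the DKO array was not the lowest. In DKO against wild-type liver the largest were 0.69 for Tsr1, 0.58 for Ebna1bp2, 0.53 for Rrp12 and 0.53 for Ppan. Ebna1bp2 read 8.25, 8.40 and 8.52 in the liver labelled Dnmt2-/-, Nsun2-/- liver and DKO liver, against 7.93 in wild-type liver. A second Ebna1bp2 probe, detected on all 8 arrays, read lower in DKO liver, at 5.07, against 5.38 in wild-type liver. Rrp12 read 7.31, 7.57 and 7.98 in the same 3 livers, against 7.45 in wild-type liver.

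Whether the 2 losses combined beyond their sum was tested with an interaction term over both sample types. It was below 0 for 14 of 36 members (47.2% of all genes), with 0 called (limma; 0% of all genes). At an unadjusted p under 0.05, Rrp12 was higher, at 0.88, and Taf1d lower, at −0.81 (adjusted p = 0.954 for both, limma), against 1.87% and 2.07% of all genes. On its brightest probe, but not on its second, Taf1d was lowest on the DKO array in both MEFs and liver, as its values above show.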

How the data were processed

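Total RNA of MEFs and liver was measured on 8 Illumina MouseRef-8 v2 arrays, 1 per group, grouped by the sample labels. That number limits the precision. Per the file headers, the deposited non-normalized table gives each probe an intensity, linear by its values, with a detection p-value whose method is not stated. The authors' processed intensities were deposited too, also linear by their values, with a normalization that is not stated. Their medians were 103.7 to 104.2 for MEFs and 107.2 to 107.9 for livers, and whether they were centred on a common value is not known.

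With limma 3.58.1 in R 4.3.3, the deposited intensities were background-corrected (normexp, background inferred from the detection p-values, offset 16), turned into log2 values and quantile-normalized over the arrays. Probes were named through the platform annotation, which gave 1 symbol for 23898 of 25608 probes. The 15290 probes detected on at least 2 of 8 arrays were fitted, with Benjamini-Hochberg adjustment over all of them. Genes are counted by their probe of highest mean signal. The fits with additive genotype terms, with an interaction and nested within sample type had 4, 3 and 2 residual degrees of freedom. Their p-values rest on how far arrays depart from the layout, since no group had a second animal or culture. The procedure was tested on simulated data. With so few degrees of freedom, 0 calls do not show that members did not differ.

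The rule for naming genes took the RNA polymerase I genes, the 6 largest and 4 smallest differences between MEFs and liver, the 4 largest fitted or DKO differences of each effect, and members whose probes disagreed. Others named for their role, or for an unadjusted p or a lost call, were picked after their values were seen. The members and all lists were chosen with earlier results of these data known. Alternatives changed the background correction, scaling, filter, probe choice and variance prior, used the authors' intensities, paired MEF and liver arrays by genotype, or left out 1 array.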

Additional observations from a re-analysis of the deposited data

Results flagged for a closer look

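Each member was checked for an array standing apart from the other 3 of its sample type, by the gap to its nearest neighbour over the range of the 4 arrays. Of 72 sets of 4 arrays, 5 exceeded Dixon's 95% critical value. Chance marks about 1 in 20 sets, and the 4 arrays differ in genotype, so they are not replicates. Polr1c read 9.03 in DKO MEFs, against 9.42 to 9.43 in the other MEFs. Nolc1 read 5.18 in the liver labelled Dnmt2-/-, against 4.13 to 4.24 in the other livers, where it was not detected. Rrs1 read 4.58 in the liver labelled Dnmt2-/-, against 4.14 to 4.21 in the other livers, and was not detected on any of them. Ppan read 5.81 in DKO MEFs, against 5.35 to 5.42 in the other MEFs. Rrp1b read 6.51 in wild-type liver, against 6.68 to 6.72 in the other livers.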

How the results depend on the processing

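The main fit did not pair arrays, and the labels give every array replicate number 1, with 1 array a group. MEF and liver arrays can be paired by genotype, an alternative added after seeing the data, which called 25 members higher and 0 lower, with a median of 0.84; Ncl (0.35) lost its call and Rrp12 (0.53) gained one. The count of members called between MEFs and liver was 22 to 26 without single arrays, and the median of the members 0.73 to 0.89. That median was 0.49 with no background correction, 1.49 with median scaling, 0.52 with the authors' processed intensities, 0.65 with no filter on dim probes and 0.49 with centring on probes detected on all arrays, an alternative added after seeing the data. The median for Dnmt2 loss in MEFs was −0.37 to −0.13 without single arrays. The genotype fits called 0 members under every alternative run, from 0 to 0 without single arrays. The direction between MEFs and liver reversed with centring for Polr1d (−0.10), Nolc1 (−0.82), Imp3 (−0.53), Noc4l (−0.048), Tsr1 (−0.31), Rrs1 (−1.04) and Gtpbp4 (−0.38). It reversed with median scaling for Imp4 (0.66), Rrs1 (−0.047) and Ppan (0.48), and with the authors' intensities for Rrs1 (−0.000275) and Ppan (0.018). Without single arrays it ranged from −0.027 (without wild-type liver) to 0.18 for Noc4l, from −0.095 to 0.11 (without Nsun2-/- MEFs) for Ppan and from −0.094 (without wild-type liver) to 0.15 for Gtpbp4. For Dnmt2 loss in liver, Taf1d ranged from −0.65 to 0.17 (without Nsun2-/- or DKO liver). The cause was not tested for any of these. Of the comparisons for single members, 826 kept direction and side of the threshold, 17 gained a call, 18 lost one and 19 reversed. Signal over background limits Nolc1, Rrs1 and Utp15, detected on 2, 2 and 4 arrays.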
